A study of Mus musculus with 12 samples.

Results

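Transcripts of 9 genes of the transforming growth factor beta (TGF-beta) pathway were followed in mouse hearts under pressure overload. They were the 3 ligands Tgfb1, Tgfb2 and Tgfb3, the 3 receptors Tgfbr1, Tgfbr2 and Tgfbr3, and the intracellular transducers Smad2, Smad3 and Smad7. The genes were found by symbol through their NCBI Gene identifiers, a rule that uses no measured value although earlier results of these data were known, and all 9 of them were found among the 18079 genes of the expression table. RNA-sequencing was conducted on left ventricular muscle of 12 male C57BL/6 mice (C57BL/6J per the study's methods), with 3 mice in each of 4 groups and 1 library per mouse. Sham or aortic banding (AB) surgery, which narrows the aorta and loads the left ventricle with pressure, was done at 8 weeks of age, and hearts were taken 4 weeks later at 12 weeks of age. The DMSO+Sham and DMSO+AB groups received the solvent DMSO, and the hispidulin+Sham and hispidulin+AB groups received the flavonoid hispidulin at 20 mg/kg/day by intraperitoneal injection, from 1 day before surgery to the end. All groups share the strain and the time course, and no transgene or deletion is named for any of them.

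TGF-beta ligands are secreted in a latent form bound to the extracellular matrix, and are released by proteases, integrins or thrombospondin. Released ligand binds Tgfbr2, which phosphorylates the kinase Tgfbr1, while Tgfbr3 (betaglycan) presents ligand, above all Tgfb2, to the other receptors. Tgfbr1 phosphorylates Smad2 and Smad3, which enter the nucleus with Smad4 and bind target genes, and Smad7 is a target that inhibits the receptor in return. In the heart the pathway is known for turning fibroblasts into matrix-producing cells and for its part in fibrosis after pressure overload.

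The 250 bases before the transcription start are shown for the 3 genes that passed the test between DMSO+AB and DMSO+Sham and have an entry in the RefSeq promoter table (GRCm38.p6), so that the starts of ligand genes that moved together can be read beside a Smad gene that moved the other way. Sequences run 5′ to 3′ on the strand of the gene, from chr7:25686752-25687001 (plus strand) for Tgfb1, chr1:186705990-186706239 (minus strand) for Tgfb2 and chr9:63757995-63758244 (minus strand) for Smad3. Capitals mark the TATA box TATAAA, the E-box CACGTG, the GC box GGGCGG, the CCAAT box CCAAT and the Smad-binding sequence CAGAC, each on either strand.
Tgfb1: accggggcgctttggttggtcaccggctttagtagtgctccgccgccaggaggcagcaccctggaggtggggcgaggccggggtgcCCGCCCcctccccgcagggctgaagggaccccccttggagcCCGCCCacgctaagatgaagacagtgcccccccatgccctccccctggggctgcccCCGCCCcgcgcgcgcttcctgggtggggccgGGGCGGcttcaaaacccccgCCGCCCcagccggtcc
Tgfb2: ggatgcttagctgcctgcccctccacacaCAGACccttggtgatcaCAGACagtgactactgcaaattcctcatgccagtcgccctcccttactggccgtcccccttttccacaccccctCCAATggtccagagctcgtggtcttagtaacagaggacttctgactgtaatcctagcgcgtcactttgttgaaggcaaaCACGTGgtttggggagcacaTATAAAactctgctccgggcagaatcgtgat
Smad3: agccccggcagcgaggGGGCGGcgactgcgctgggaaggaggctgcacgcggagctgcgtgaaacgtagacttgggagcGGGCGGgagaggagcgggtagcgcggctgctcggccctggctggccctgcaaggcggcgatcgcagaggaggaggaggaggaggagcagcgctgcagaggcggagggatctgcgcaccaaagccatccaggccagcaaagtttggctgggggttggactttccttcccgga
The Tgfb1 sequence held 5 GC boxes and none of the other 4 motifs, and 75.2% of its bases were G or C. The Tgfb2 sequence held no GC box, 1 TATA box that begins 31 bases before the start, 1 E-box, 1 CCAAT box and 2 Smad-binding sequences, and 53.6% of its bases were G or C. The Smad3 sequence held 2 GC boxes alone, with 69.2% G or C. Over the 32851 promoters of the table, a GC box was found in 32.7%, a CCAAT box in 33.8%, a Smad-binding sequence in 42.2%, a TATA box in 12.4% and an E-box in 6.02%, and the median share of G or C was 52.4%. The AP-1 sequence TGACTCA (in 4.46% of promoters) and the cyclic AMP response sequence TGACGTCA (1.55%) were also searched on both strands and had no match in these 3 sequences. No matches overlapped. Entries were found for 5 of the 9 genes, the other two of them Tgfbr1 and Tgfbr2. Tgfb3, Tgfbr3, Smad2 and Smad7 had no entry.

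Levels are given as FPKM, the number of fragments scaled to transcript length and to the size of the library, which is a level per length and allows genes to be compared. Differences between groups were tested on log2(FPKM + 1) with limma over 11664 genes that reached an FPKM of 1 in 3 libraries, and a gene was called at an adjusted p (Benjamini-Hochberg over all those genes) under 0.05. On this scale the change of a low gene is understated. A few libraries stood apart. DMSO+Sham 3 had the lowest summed level of 6 cardiomyocyte markers (29517 FPKM, against 36007 to 44888 in the others) and the highest sums of 6 macrophage markers (293 FPKM, against 120 to 239) and of 3 neutrophil markers (58 FPKM, against 0.39 to 36.1). The 3 atrial markers in the table summed to 774 FPKM in hispidulin+Sham 3, to 172 in DMSO+AB 2 and to 91 in hispidulin+AB 3, against 2.53 to 40 in the other libraries. In whole tissue, more cells of a type and more RNA per cell cannot be told apart.

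Transcripts of all 3 ligands were higher after AB in DMSO-treated mice. Tgfb2 rose most, from a mean of 2.10 ± 0.295 FPKM (SD, n = 3) in DMSO+Sham to 7.08 ± 1.70 FPKM in DMSO+AB, a ratio of 3.38, followed by Tgfb3 with a ratio of 1.95 and Tgfb1 with a ratio of 1.54. Tgfb1 was the most abundant ligand and Tgfb2 the least in 12 of 12 mice.

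Tgfb2 is the ligand that depends most on betaglycan for binding. It measured 1.76, 2.22 and 2.31 FPKM in the DMSO+Sham mice, 2.54, 2.63 and 2.17 FPKM in the hispidulin+Sham mice, 5.14, 8.31 and 7.78 FPKM in the DMSO+AB mice, and 4.12, 3.87 and 5.10 FPKM in the hispidulin+AB mice. Every AB mouse was above every Sham mouse, and every DMSO+AB mouse was above every hispidulin+AB mouse, the nearest pair at 5.14 and 5.10 FPKM. DMSO+AB exceeded DMSO+Sham by 1.36 ± 0.16 (SE) on the log2 scale (adjusted p = 0.00376), and AB exceeded Sham over both treatments by 1.00 ± 0.11 (adjusted p = 0.00139, higher in 6 of 6 mice than in any Sham mouse). Among the 11664 genes, Tgfb2 ranked 7 by p in the first of these comparisons and 13 in the second. Within the mice whose label numbers belong to the 52xx series the difference between DMSO+AB and DMSO+Sham was 1.45 (1 mouse against 1), and within the 67xx series it was 1.19 (2 against 1).

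Tgfb1 is made by many cell types, immune cells among them. It measured 18.75, 22.06 and 18.42 FPKM in the DMSO+Sham mice, 19.83, 15.13 and 18.61 FPKM in the hispidulin+Sham mice, 25.31, 32.52 and 33.18 FPKM in the DMSO+AB mice, and 23.15, 24.34 and 24.25 FPKM in the hispidulin+AB mice. Every AB mouse was above every Sham mouse, and the 3 hispidulin+AB mice lay close together, below the 3 DMSO+AB mice. DMSO+AB exceeded DMSO+Sham by 0.59 ± 0.13 on the log2 scale (adjusted p = 0.0268), and AB exceeded Sham over both treatments by 0.50 ± 0.09 (adjusted p = 0.00984). The call between DMSO+AB and DMSO+Sham was lost without DMSO+Sham 1 (adjusted p = 0.1), DMSO+Sham 3 (0.0606), DMSO+AB 2 (0.103) or DMSO+AB 3 (0.0856), while the call over both treatments held without any 1 library (adjusted p up to 0.0321) but not without the 3 libraries high in atrial markers (0.126).

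Tgfb3 measured 4.57, 7.0 and 3.82 FPKM in the DMSO+Sham mice, 5.71, 6.18 and 5.80 FPKM in the hispidulin+Sham mice, 6.76, 12.08 and 11.22 FPKM in the DMSO+AB mice, and 7.24, 8.68 and 6.47 FPKM in the hispidulin+AB mice. DMSO+Sham 2 and DMSO+AB 1 crossed, so the DMSO groups overlapped. DMSO+AB exceeded DMSO+Sham by 0.84 ± 0.21 on the log2 scale (adjusted p = 0.0431), and AB exceeded Sham over both treatments by 0.57 ± 0.15 (adjusted p = 0.0424). Both calls were close to the threshold, and leaving out 1 library moved the adjusted p to between 0.00764 and 0.159 in the first and to between 0.00822 and 0.101 in the second, in which the call held in 2 of the 12 fits that each leave out 1 library.

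**Figure D1:**
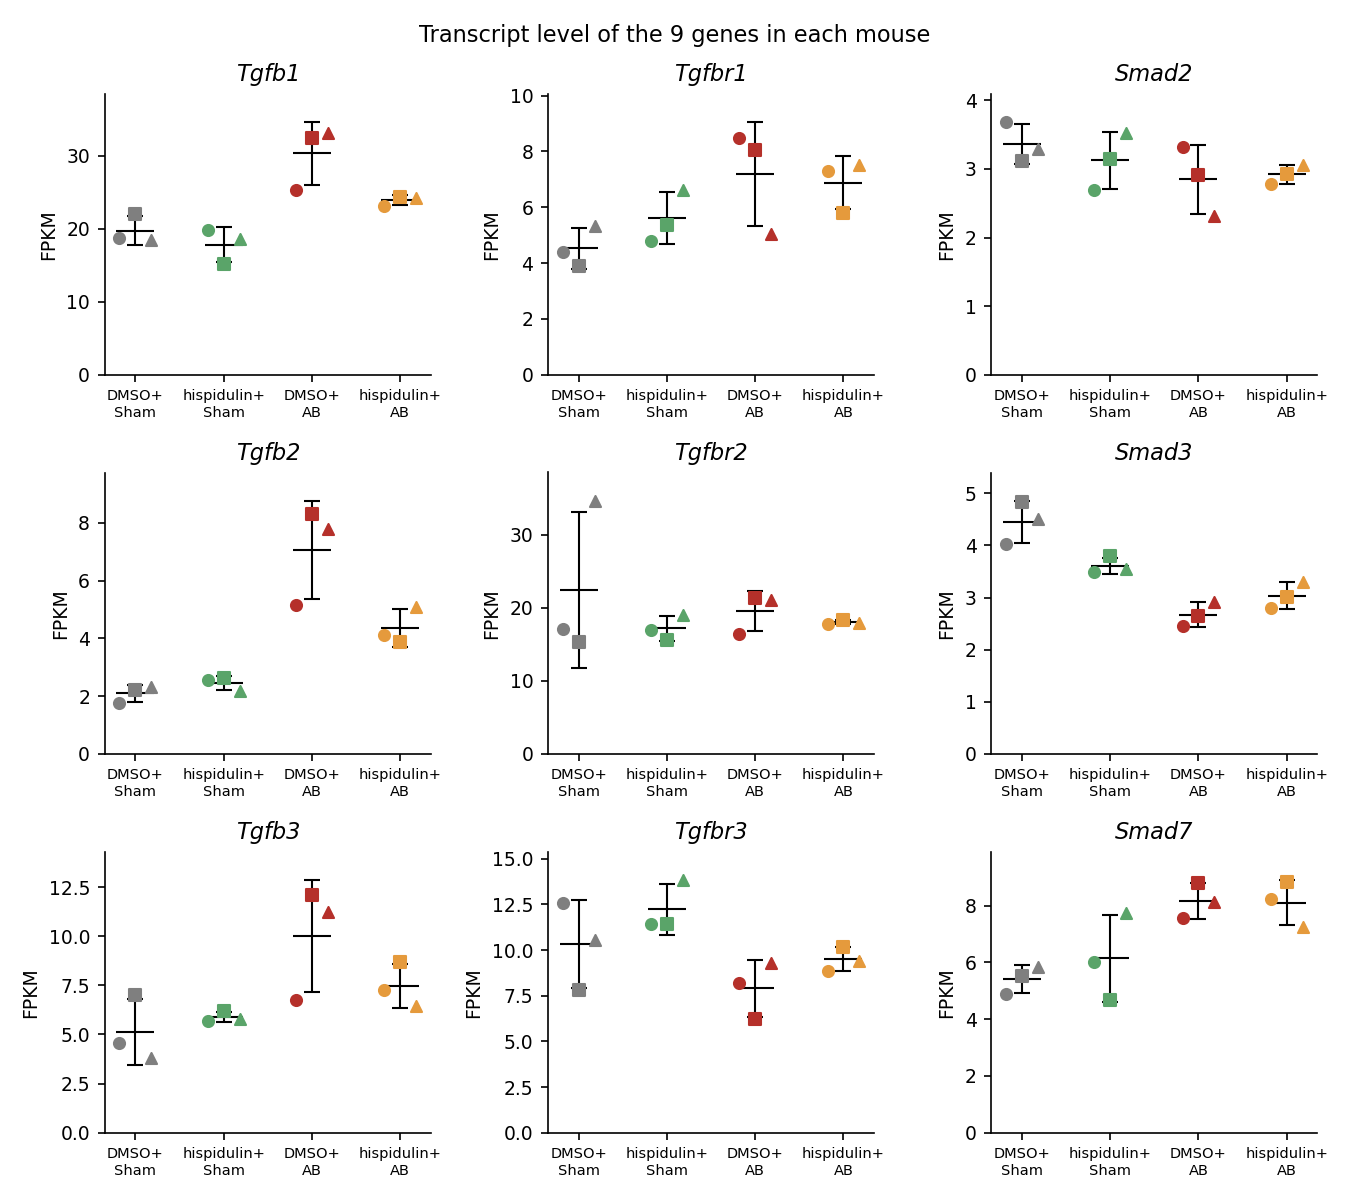
FPKM of each gene (vertical axes, from 0) in the 12 mice, 3 per group, with circles, squares and triangles for replicates 1, 2 and 3 and bars for the mean and SD. Every AB mouse lies above every Sham mouse for Tgfb1 and Tgfb2 and below every Sham mouse for Smad3, and Tgfbr2 has 1 high value of 34.71 FPKM in DMSO+Sham.

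Added together, the 3 ligands came to 25.08, 31.28 and 24.55 FPKM in the DMSO+Sham mice and to 28.08, 23.94 and 26.58 FPKM in the hispidulin+Sham mice. The sums were 37.21, 52.91 and 52.18 FPKM in the DMSO+AB mice and 34.51, 36.89 and 35.82 FPKM in the hispidulin+AB mice. The Sham groups overlapped, and DMSO+AB 1 was nearer to the hispidulin+AB mice than to the other DMSO+AB mice. Tgfb2 made up 7.02% to 9.41% of the sum in DMSO+Sham, 8.16% to 11.0% in hispidulin+Sham, 13.8% to 15.7% in DMSO+AB and 10.5% to 14.2% in hispidulin+AB. Tgfb1 made up 61.5% to 75.0% of it in every mouse. These sums and shares are descriptions without a test.

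No receptor transcript passed the test in any comparison. Tgfbr2, the kinase that binds ligand first, was the most abundant of the 3 receptors in 12 of 12 mice, and the signalling kinase Tgfbr1 was the least abundant in 10 of them.

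Tgfbr1 measured 4.38, 3.89 and 5.34 FPKM in the DMSO+Sham mice, 4.80, 5.38 and 6.62 FPKM in the hispidulin+Sham mice, 8.48, 8.06 and 5.05 FPKM in the DMSO+AB mice, and 7.31, 5.79 and 7.53 FPKM in the hispidulin+AB mice. DMSO+AB 3 lay among the Sham mice and the other DMSO+AB mice lay above all of them. The difference was 0.55 ± 0.18 on the log2 scale between DMSO+AB and DMSO+Sham (adjusted p = 0.111, 95% confidence interval 0.15 to 0.94) and 0.40 ± 0.13 over both treatments (adjusted p = 0.0829). Without DMSO+AB 3 the difference was 0.75 and passed the test (adjusted p = 0.0480), and with library weights it was 0.67 (adjusted p = 0.0220). DMSO+AB 3 had a weight of 0.344, the lowest of its group, so both results reduce the part of the same library.

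Betaglycan (Tgfbr3) measured 12.60, 7.80 and 10.57 FPKM in the DMSO+Sham mice, 11.45, 11.43 and 13.86 FPKM in the hispidulin+Sham mice, 8.22, 6.21 and 9.30 FPKM in the DMSO+AB mice, and 8.87, 10.18 and 9.42 FPKM in the hispidulin+AB mice. All hispidulin+AB mice were below all hispidulin+Sham mice, and the DMSO groups overlapped. The difference was -0.34 ± 0.17 on the log2 scale between DMSO+AB and DMSO+Sham (adjusted p = 0.287), -0.33 ± 0.17 between hispidulin+AB and hispidulin+Sham (adjusted p = 0.729) and -0.34 ± 0.12 over both treatments (adjusted p = 0.114). With library weights it passed between DMSO+AB and DMSO+Sham (-0.63, adjusted p = 0.0282) and over both treatments (-0.47, adjusted p = 0.00694). The weights were 2.76, 0.434 and 0.328 for DMSO+Sham 1, 2 and 3, so the DMSO+Sham level rests mostly on DMSO+Sham 1. That mouse was the highest of its group in Tgfbr3. Without DMSO+Sham 2 the difference passed over both treatments (-0.42, adjusted p = 0.0305). Between DMSO+AB and DMSO+Sham it was -0.51 without DMSO+Sham 2 (adjusted p = 0.0711), -0.195 without DMSO+Sham 1 (0.622) and -0.194 without DMSO+AB 2 (0.588).

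Tgfbr2 measured 17.17, 15.37 and 34.71 FPKM in the DMSO+Sham mice, 17.02, 15.63 and 19.00 FPKM in the hispidulin+Sham mice, 16.48, 21.35 and 21.03 FPKM in the DMSO+AB mice, and 17.77, 18.35 and 17.99 FPKM in the hispidulin+AB mice. The value in DMSO+Sham 3 was far above all others, in the library that also had the highest macrophage and neutrophil marker sums and the lowest cardiomyocyte marker sum, whose part in this value was not tested. The difference between DMSO+AB and DMSO+Sham was -0.10 (95% confidence interval -0.61 to 0.41, adjusted p = 0.844), and without DMSO+Sham 3 it was 0.25 (adjusted p = 0.324).

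The Smad transcripts moved in different directions. Smad3, the transducer that binds DNA itself, fell after AB, the inhibitory Smad7 rose over both treatments, and Smad2 did not pass the test in any comparison. Smad7 had the highest level of the 3 in 12 of 12 mice.

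Smad3 measured 4.02, 4.83 and 4.51 FPKM in the DMSO+Sham mice, 3.50, 3.79 and 3.55 FPKM in the hispidulin+Sham mice, 2.45, 2.64 and 2.92 FPKM in the DMSO+AB mice, and 2.79, 3.01 and 3.30 FPKM in the hispidulin+AB mice. Every AB mouse was below every Sham mouse, and every hispidulin+Sham mouse was below every DMSO+Sham mouse. DMSO+AB was lower than DMSO+Sham by a log2 difference of -0.57 ± 0.11 (adjusted p = 0.0144), a ratio of mean FPKM of 0.600, and AB was lower than Sham over both treatments by -0.38 ± 0.07 (adjusted p = 0.0121, lower in 6 of 6 mice). The call over both treatments held without any 1 library (adjusted p up to 0.0412) but not without the 3 libraries high in atrial markers (0.12), and the call in DMSO-treated mice was lost without DMSO+AB 2 (adjusted p = 0.0583). The differences between DMSO+AB and DMSO+Sham were -0.57 within the 52xx series (1 mouse against 1) and -0.64 within the 67xx series (2 against 1). Of 6 cardiomyocyte markers, 1 (Ryr2) was also called lower in DMSO+AB and 0 were called higher. The median of the 6 was -0.27 on the log2 scale, and their part in the Smad3 difference was not tested.

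Smad7 measured 4.89, 5.52 and 5.83 FPKM in the DMSO+Sham mice, 6.02, 4.67 and 7.73 FPKM in the hispidulin+Sham mice, 7.56, 8.80 and 8.14 FPKM in the DMSO+AB mice, and 8.23, 8.85 and 7.25 FPKM in the hispidulin+AB mice. The DMSO groups did not overlap, and hispidulin+Sham 3 lay above hispidulin+AB 3. AB exceeded Sham over both treatments by 0.44 ± 0.10 on the log2 scale (adjusted p = 0.0267), a call that held in 6 of the 12 fits that each leave out 1 library (adjusted p 0.0133 to 0.0700). Between DMSO+AB and DMSO+Sham the difference of 0.52 ± 0.15 did not pass (adjusted p = 0.0671), but it did under median-of-ratios scaling (0.0438), quantile normalization (0.0400) and library weights (0.0309).

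Smad2 ranged from 2.32 to 3.69 FPKM over the 12 mice and overlapped between the groups of each comparison made here, although every DMSO+Sham mouse was above every hispidulin+AB mouse. Its difference between DMSO+AB and DMSO+Sham was -0.19 ± 0.13 on the log2 scale (95% confidence interval -0.46 to 0.09, adjusted p = 0.436). The level of Smad7 divided by that of Smad3 was 1.22, 1.14 and 1.29 in the DMSO+Sham mice, 1.72, 1.23 and 2.18 in the hispidulin+Sham mice, 3.09, 3.33 and 2.79 in the DMSO+AB mice, and 2.95, 2.94 and 2.2 in the hispidulin+AB mice. The DMSO groups lay far apart, and the highest hispidulin+Sham mouse and the lowest hispidulin+AB mouse were next to each other. This ratio was formed after its values were seen and has no test.

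**Figure D2:**
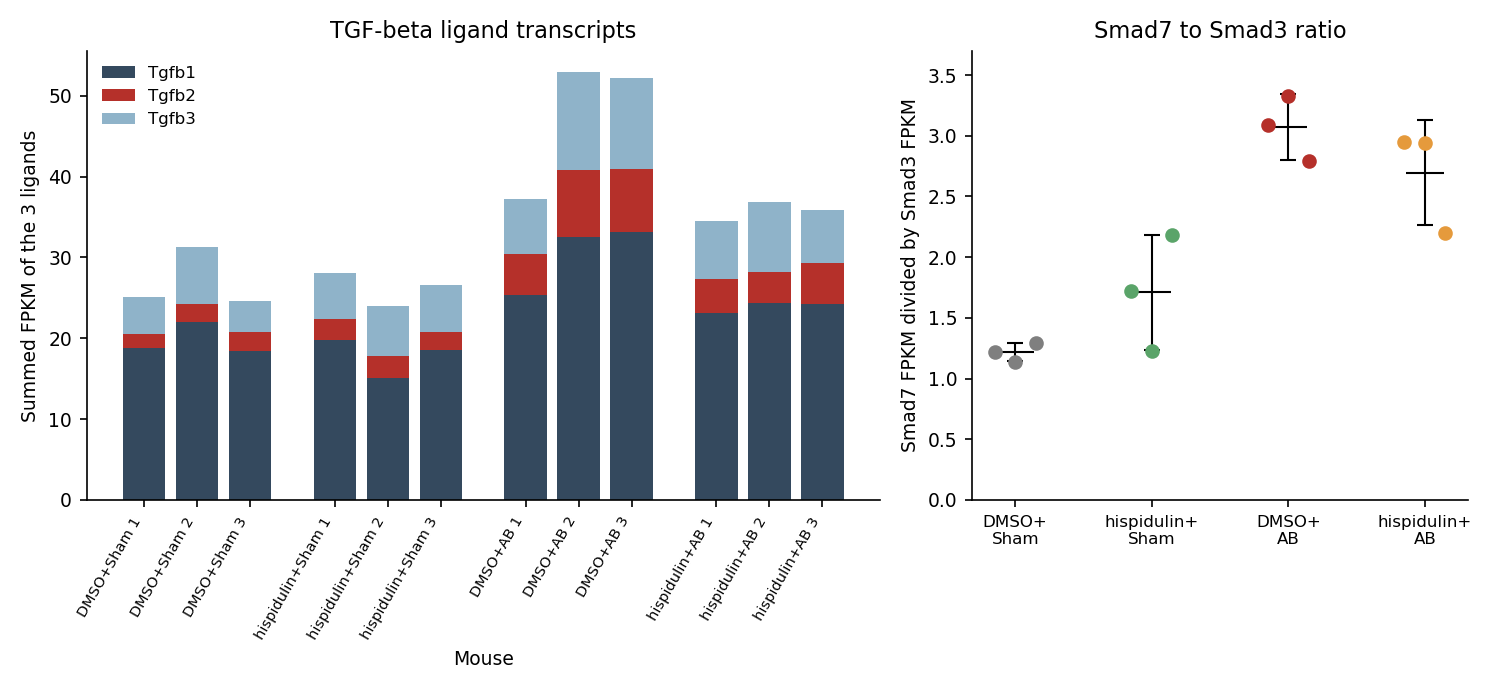
Left, FPKM of Tgfb1, Tgfb2 and Tgfb3 stacked for each of the 12 mice, and right, Smad7 FPKM divided by Smad3 FPKM per mouse with the mean and SD of each group of 3. Ligand sums reach 52.91 and 52.18 FPKM in DMSO+AB 2 and 3 and stay at or below 37.21 FPKM in the other mice, and the Smad ratio is 1.14 to 2.18 in Sham mice and 2.2 to 3.33 in AB mice.

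Counted together, 4 of the 9 genes were called between DMSO+AB and DMSO+Sham, where 5.21% of all 11664 genes were called. The 3 called higher were the ligands, beside 2.5% of all genes called higher, and the 1 called lower was Smad3, beside 2.71% called lower. Over both treatments 5 of the 9 were called, beside 7.39% of all genes, with the 3 ligands and Smad7 higher (3.52% of all genes) and Smad3 lower (3.87%). All genes called over both treatments split into 411 higher and 451 lower, and under median-of-ratios scaling into 458 higher and 335 lower. The median log2 difference of the 9 genes was 0.52 between DMSO+AB and DMSO+Sham and 0.40 over both treatments, and over all genes it was -0.04 and -0.03. In 4 of the 9 genes (Tgfb1, Tgfb2, Smad3 and Smad7) the DMSO+AB and DMSO+Sham mice did not overlap, as in 17.9% of all genes, and in 3 (Tgfb1, Tgfb2 and Smad3) the 6 AB mice did not overlap the 6 Sham mice, as in 4.96%. An exact two-sided permutation test within each treatment gave p = 0.005 for Tgfb1, Tgfb2 and Smad3, the smallest its 400 arrangements allow, and p = 0.01 for Tgfb3 and Smad7. With 3 mice against 3 the same test cannot give a p under 0.1, which Tgfb1, Tgfb2, Smad3 and Smad7 reached between DMSO+AB and DMSO+Sham.

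The number called in DMSO-treated mice depended on how the spread was estimated. When the spread came from the 6 DMSO libraries alone, 0 of the 9 genes and 11 of all 11664 genes were called in limma (1450 genes at an unadjusted p under 0.05), and Tgfb2 had an adjusted p of 0.0702. Without DMSO+Sham 1 or without DMSO+Sham 3, Tgfb2 and Smad3 were called, and without DMSO+AB 3 they were called together with Tgfbr1. Without DMSO+AB 2, or without the 3 libraries high in atrial markers, Tgfb2 alone was called. With the number series of the mice as a covariate, Tgfb1 (adjusted p = 0.0886) and Tgfb3 (0.122) lost the call between DMSO+AB and DMSO+Sham, and Tgfb3 (0.0858) and Smad7 (0.0771) lost it over both treatments. DMSO+Sham 1 carries the number 1 and is in neither series. The covariate fit therefore does not use it for the differences, as in the fit without DMSO+Sham 1. Within the 52xx and the 67xx series the difference between DMSO+AB and DMSO+Sham was 0.57 and 0.61 for Tgfb1 and 0.61 and 1.06 for Tgfb3.

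Pressure overload was also compared in hispidulin-treated mice. limma called 0 of the 9 genes and 0% of all genes between hispidulin+AB and hispidulin+Sham, with 847 genes and 3 of the 9 at an unadjusted p under 0.05, and with the replicate number as a block it called 17 genes, none of the 9. With the spread of the 6 hispidulin libraries alone it called 49 genes, and with 1 library left out up to 3. The log2 difference was 0.63 ± 0.16 for Tgfb2 (adjusted p = 0.425), 0.41 ± 0.13 for Tgfb1 (0.516), 0.37 ± 0.15 for Smad7 (0.638), 0.29 ± 0.21 for Tgfb3 (0.861) and -0.20 ± 0.11 for Smad3 (0.746). The mice of the 2 groups did not overlap in 5 of the 9 genes (Tgfb1, Tgfb2, Tgfb3, Tgfbr3 and Smad3), beside 20.9% of all genes. With library weights, which give less weight to libraries far from their group, Tgfb1 (adjusted p = 0.0477) and Tgfb2 (0.0339) were called, beside 209 genes in all. The 3 neutrophil markers summed to 20.3 to 36.1 FPKM in hispidulin+AB and to 0.39 to 13.2 FPKM in hispidulin+Sham. All 3 were higher in hispidulin+AB at an unadjusted p under 0.05 (median log2 difference 2.07, 0 called in limma), beside 7.26% of all genes, as were 1 of 6 cardiomyocyte markers (median -0.09) and 1 of 6 fibroblast markers (median 0.07) in either direction, and their part in the differences of the 9 genes was not tested.

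Whether hispidulin altered these transcripts in banded hearts was asked by comparing hispidulin+AB with DMSO+AB. Among banded mice limma called 0 of the 9 genes and 0% of all genes, with 362 genes and 2 of the 9 at an unadjusted p under 0.05. Without DMSO+AB 1 it called 20 genes, 4 higher and 16 lower, and without a filter on low values 2 genes, none of them among the 9. Tgfb2 differed by -0.57 ± 0.16 on the log2 scale (95% confidence interval -0.93 to -0.22, unadjusted p = 0.00405, adjusted p = 0.996), a ratio of mean FPKM of 0.617. Tgfb1 differed by -0.32 ± 0.13 (interval -0.61 to -0.04, unadjusted p = 0.0299, adjusted p = 0.996), a ratio of 0.788. In both ligands all 3 hispidulin+AB mice were below all 3 DMSO+AB mice, as 2 groups did not overlap in 7.88% of all genes, and the exact permutation p was 0.1. The difference in Tgfb3 was -0.35 (interval -0.82 to 0.11). In the receptors and Smads the estimates ran from -0.11 for Tgfbr2 to 0.25 for Tgfbr3, with intervals that include 0 in each of the 6 genes. Of 3 mesothelial markers, 2 were at an unadjusted p under 0.05 in this comparison (median of the 3 0.87, 0 called in limma), beside 3.1% of all genes, with sums of 2.04 to 7.97 FPKM in hispidulin+AB and 1.63 to 2.40 FPKM in DMSO+AB. So were 2 of 6 smooth muscle and pericyte markers (median of the 6 0.08) and 1 of 6 fibroblast markers (median -0.13). The 3 neutrophil markers were higher in hispidulin+AB with 0 at an unadjusted p under 0.05 in limma (median 1.34), with sums of 20.3 to 36.1 FPKM against 4.43 to 24.8 FPKM in DMSO+AB. The part of these markers in the differences of the 9 genes was not tested. Without DMSO+AB 1 the Tgfb2 difference was -0.76 with an adjusted p of 0.0677, the smallest of the 17 alternatives.

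In sham-operated mice, limma called 0 of the 9 genes and 0% of all genes between hispidulin+Sham and DMSO+Sham (287 genes and 1 of the 9 at an unadjusted p under 0.05). That gene was Smad3, lower by a log2 difference of -0.24 ± 0.11 (unadjusted p = 0.0431, adjusted p = 1), and it was the 1 gene of the 9 whose sham groups did not overlap, beside 5.6% of all genes. Of 4 red blood cell markers, 2 were at an unadjusted p under 0.05 in this comparison, beside 2.46% of all genes, and all 4 were higher in hispidulin+Sham (median 0.88, 0 called in limma), with sums of 2734 to 8324 FPKM against 2129 to 3520 FPKM. The 3 neutrophil markers were lower in hispidulin+Sham (median -1.45, 0 at an unadjusted p under 0.05 in limma), 1 of 6 fibroblast markers passed that p (median 0.34), and the part of these markers was not tested. Whether the difference between AB and Sham depended on the treatment was tested as an interaction, which called 0 of the 9 and 0% of all genes in limma (289 genes and 2 of the 9 at an unadjusted p under 0.05), and 3 genes, none of the 9, without DMSO+AB 1. The interaction was -0.73 ± 0.23 for Tgfb2 (unadjusted p = 0.00778) and 0.38 ± 0.15 for Smad3 (0.0274), with an adjusted p of 1 for both. The 3 neutrophil markers were all at an unadjusted p under 0.05 in the interaction (median 2.83, 0 called in limma), beside 2.48% of all genes, as was 1 of 6 fibroblast markers (median -0.46), and their part was not tested. The AB differences of DMSO-treated and hispidulin-treated mice are therefore not shown to differ. Comparisons that use the same mice, such as the DMSO+AB mice here and above, are not independent of each other.

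**Figure D3:**
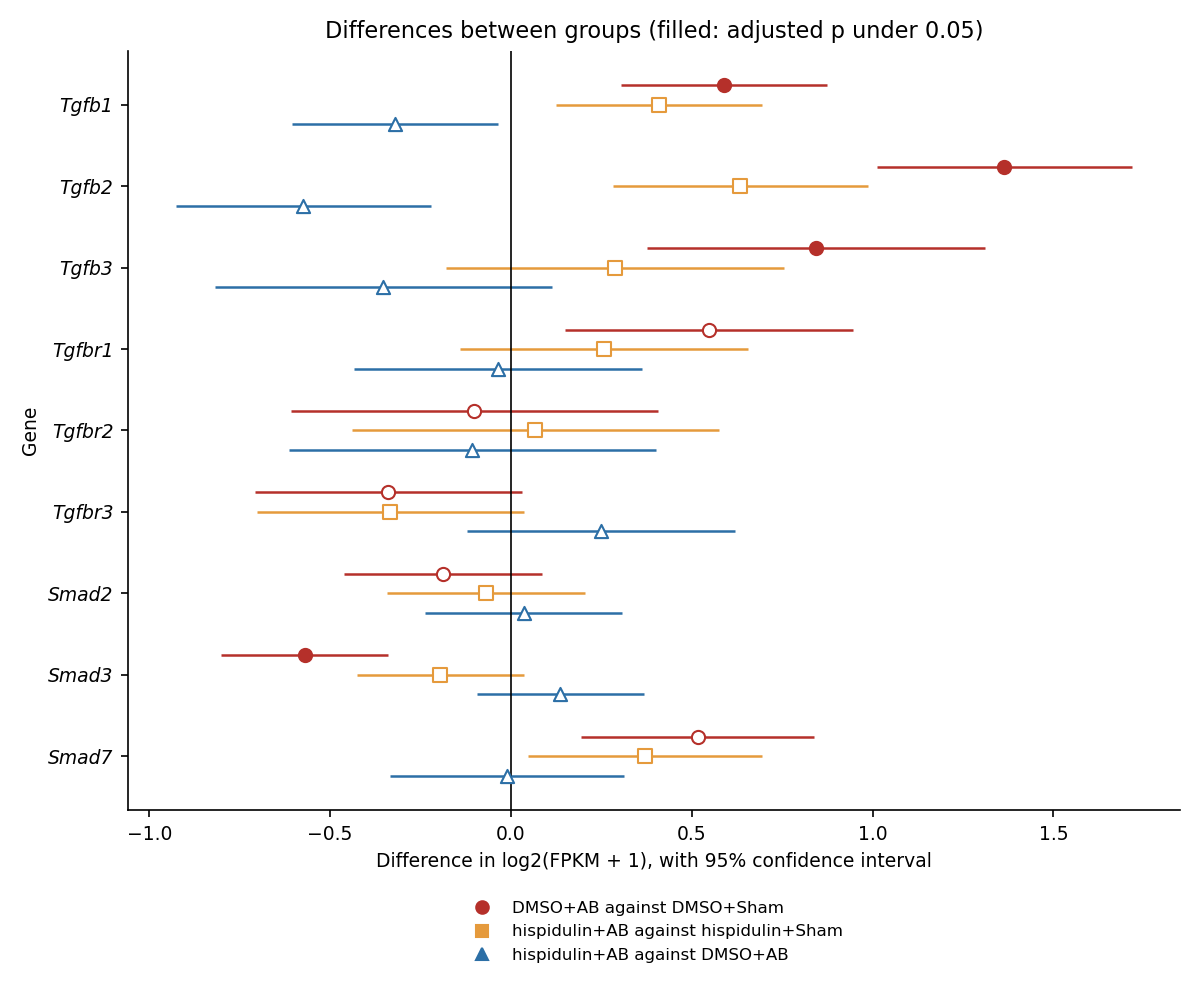
Difference in log2(FPKM + 1) for the 9 genes (horizontal axis) with 95% confidence intervals in 3 comparisons, filled where the adjusted p was under 0.05. The filled points are Tgfb1, Tgfb2, Tgfb3 and Smad3 between DMSO+AB and DMSO+Sham, and the intervals for hispidulin+AB against DMSO+AB exclude 0 in Tgfb1 and Tgfb2 alone.

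The genes whose pattern over the 12 libraries was most like that of each member were looked up by Pearson correlation of log2(FPKM + 1), as a description in which the points share groups and libraries. Nmrk2, a muscle nicotinamide riboside kinase, was among those of Tgfb2 (r = 0.964). For Tgfb1 the nearest were Nav1 (r = 0.974) and Loxl1 (r = 0.950), the latter a lysyl oxidase of elastic fibres, and for Tgfb3 they were Olfml3 (r = 0.985) and Fam171a2 (r = 0.980). Prox1, a homeobox transcription factor (r = 0.966), and Armc2 (r = 0.952) were nearest to Smad3. Pabpc1 (r = 0.932) and Agpat4 (r = 0.918) were nearest to Smad7, and Foxj3 (r = 0.943) and Otud4 (r = 0.940) to Smad2. Among the receptors, Tgfbr1 was most like Filip1l (r = 0.940) and Kif5b (r = 0.923), Tgfbr3 most like Klhl38 (r = 0.917) and Helb (r = 0.914), and Tgfbr2 most like Sema5a (r = 0.973) and Psmd4 (r = 0.970). With the group means removed, r was 0.974 for Tgfb3 with Olfml3 but 0.668 for Smad3 with Prox1.

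Beyond the 9 genes, 69 other genes of the pathway were listed by role, with earlier results of these data known, and 61 of them were tested. The shares called among them are therefore descriptions. Between DMSO+AB and DMSO+Sham 13 were called higher and 1 lower (23.0%, beside 5.21% of all genes), and over both treatments 18 were called higher and 0 lower (29.5%, beside 7.39%). The median difference of the 61 was 0.26 and 0.21, against -0.04 and -0.03 over all genes. Among the called genes, Ltbp2 and Inhba were under 1 FPKM in every Sham mouse and passed the filter through the AB mice. The count in DMSO-treated mice fell to 8 without DMSO+Sham 3, to 2 without DMSO+Sham 1 or without DMSO+AB 3, to 1 without DMSO+AB 2, and to 0 without the 3 libraries high in atrial markers or with the spread of the 6 DMSO libraries alone. Over both treatments it was 8 to 21 with 1 library left out and 1 without those 3 libraries. In DMSO-treated mice, without DMSO+Sham 2 and without DMSO+AB 1, the latent complex list had 3 and 4 calls and the regulators 3 and 3. In those fits 1053 and 954 of all genes were called, against 608. With 1 library left out, Pmepa1 kept its call between DMSO+AB and DMSO+Sham in 6 of 6 fits, Ccn2 in 5 and Nedd4l in 0, and Ltbp2, Fbn1, Pmepa1, Ccn2, Postn and Timp1 kept theirs over both treatments in 12 of 12 fits. With the number series as covariate 3 of the 61 were called in DMSO-treated mice and 10 over both treatments. Between hispidulin+AB and DMSO+AB 0 of the 61 were called, and their median difference was -0.06.

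Among 11 tested genes listed under the latent complex and its activation, 3 were called higher in DMSO+AB and 0 lower. Without a filter on low values, 0 of this list were called in that comparison. With 1 library left out the count was 0 to 4, with 0 called without DMSO+Sham 1, DMSO+AB 2 or DMSO+AB 3, and the calls of Fbn1 and Ltbp4 each held in 2 of 6 fits and that of Ltbp2 in 3. Ltbp2, a matrix protein of the family named latent TGF-beta binding proteins, measured 0.32, 0.81 and 0.27 FPKM in the DMSO+Sham mice and 1.66, 18.67 and 11.86 FPKM in the DMSO+AB mice (log2 difference 2.60 ± 0.55, adjusted p = 0.0232). Its Sham values were at most 0.81 FPKM, so it passed the filter of 1 FPKM through the AB mice. DMSO+AB 1 was far below the other two in Ltbp2, and the hispidulin+AB mice, at 1.28, 3.27 and 2.35 FPKM, were nearer to it. Fibrillin-1 (Fbn1), the microfibril protein to which latent complexes attach, rose by 1.22 ± 0.29 (adjusted p = 0.0350), and Ltbp4 rose by 1.10 ± 0.28 (adjusted p = 0.0412, and 0.0561 over both treatments). Thrombospondin-1 (Thbs1), an activator of latent TGF-beta, was called over both treatments alone (1.88 ± 0.46, adjusted p = 0.0306, held in 6 of 12 fits with 1 library left out), with AB mice from 2.90 to 25.72 FPKM and Sham mice from 0.84 to 4.09 FPKM.

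Among 15 transcriptional targets, 7 were called higher in DMSO+AB and 0 lower, and 9 were called higher over both treatments. The median difference of the 15 was 1.09 in DMSO-treated mice and 1.00 over both treatments. Periostin (Postn), a matrix protein of activated fibroblasts, measured 6.03, 10.48 and 3.82 FPKM in the DMSO+Sham mice, 6.98, 8.28 and 12.83 FPKM in the hispidulin+Sham mice, 23.44, 183.62 and 50.92 FPKM in the DMSO+AB mice, and 16.82, 50.85 and 35.17 FPKM in the hispidulin+AB mice. Every AB mouse was above every Sham mouse, with DMSO+AB 2 highest by far (DMSO+AB against DMSO+Sham 3.08 ± 0.62, adjusted p = 0.0197). The growth factor Ccn2 measured 53.56, 72.67 and 123.93 FPKM in the DMSO+Sham mice, 96.13, 63.98 and 105.43 FPKM in the hispidulin+Sham mice, 298.30, 314.25 and 230.34 FPKM in the DMSO+AB mice, and 215.67, 143.27 and 264.89 FPKM in the hispidulin+AB mice. It too was above every Sham mouse in every AB mouse (1.81 ± 0.30, adjusted p = 0.0106). The metalloproteinase inhibitor Timp1 rose by 1.91 ± 0.48 (adjusted p = 0.0430), the collagens Col1a1 by 1.86 ± 0.46 (0.0407) and Col1a2 by 1.60 ± 0.41 (0.0464), and fibronectin (Fn1) by 0.98 ± 0.22 (0.0269). Col3a1 (1.58 ± 0.41, adjusted p = 0.0385) and the actin-binding protein Tagln (0.49 ± 0.13, adjusted p = 0.0430) were called over both treatments alone, and each call held in 2 of the 12 fits that leave out 1 library (adjusted p up to 0.0974 and 0.102), as did that of Col1a2 over both treatments (up to 0.0948). That of Col1a1 held in 5 (up to 0.0631) and that of Fn1 in 10 (up to 0.0516). Between DMSO+AB and DMSO+Sham the calls of Col1a1, Col1a2, Fn1 and Timp1 each held in 2 of 6 such fits and that of Postn in 3. Between hispidulin+AB and DMSO+AB 0 of the 15 were called and 13 of the 15 estimates were below 0, with a median of -0.45. Without DMSO+AB 2 or without the 3 libraries high in atrial markers, 0 of the 15 were called in DMSO-treated mice.

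Among 16 regulators of receptors and Smads, 2 were called higher and 1 lower in DMSO+AB, and 1 was called in all without DMSO+Sham 1, DMSO+Sham 3, DMSO+AB 2 or DMSO+AB 3. Pmepa1, a target that binds Smads and restrains them, measured 7.87, 13.94 and 11.71 FPKM in the DMSO+Sham mice, 9.95, 9.94 and 12.12 FPKM in the hispidulin+Sham mice, 21.32, 35.45 and 27.53 FPKM in the DMSO+AB mice, and 18.91, 18.06 and 18.33 FPKM in the hispidulin+AB mice. All AB mice were above all Sham mice, and all hispidulin+AB mice were below all DMSO+AB mice (DMSO+AB against DMSO+Sham 1.26 ± 0.20, adjusted p = 0.00858, and hispidulin+AB against DMSO+AB -0.55 ± 0.20, adjusted p = 0.996). The corepressor Tgif1 rose by 0.92 ± 0.23 (adjusted p = 0.0416), and the ubiquitin ligase Nedd4l fell by 0.50 on the log2 scale (adjusted p = 0.0467). Fkbp1a, which binds and holds the type I receptor inactive, was called over both treatments alone (0.29 ± 0.08, adjusted p = 0.0475), a call that held in 2 of 12 fits with 1 library left out (up to 0.113). That of Tgif1 held in 2 of 6 such fits in DMSO-treated mice and in 7 of 12 over both treatments.

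Among 6 tested other ligands of the family, Gdf15 was called higher in DMSO+AB (2.39 ± 0.60, adjusted p = 0.0411), with 0.22, 3.20 and 0.30 FPKM in the DMSO+Sham mice and 2.83, 14.49 and 15.27 FPKM in the DMSO+AB mice. DMSO+Sham 2 lay above DMSO+AB 1 in Gdf15, and the call held in 2 of 6 fits with 1 library left out. It was lost when 0.1 in place of 1 was added to the FPKM, and without a filter on low values. The activin subunit Inhba was called over both treatments (0.71 ± 0.19, adjusted p = 0.0419) at levels of at most 1.73 FPKM. Its Sham values were at most 0.75 FPKM, so it passed the filter of 1 FPKM through the AB mice. Without that filter 0 of these other ligands were called over both treatments. Of 9 tested other receptors, 0 were called in DMSO-treated mice, where the smallest p values were those of endoglin (Eng, 0.36 ± 0.10, adjusted p = 0.0661) and the pseudoreceptor Bambi (0.62 ± 0.19, adjusted p = 0.0863), and Bambi was called over both treatments (0.53 ± 0.13, adjusted p = 0.0347). With 1 library left out, the call over both treatments held in 3 of 12 fits for Bambi (adjusted p up to 0.0836), in 3 of 12 for Gdf15 (up to 0.0944) and in 4 of 12 for Inhba (up to 0.108), and none of the 3 was called with the number series as covariate. Of 4 tested other Smads 0 were called in limma, and at an unadjusted p under 0.05 there were 0 in DMSO-treated mice and 1 over both treatments. The smallest p values in DMSO-treated mice were those of Smad1 (0.27 ± 0.14, adjusted p = 0.307) and the inhibitory Smad6 (-0.24 ± 0.19, adjusted p = 0.527).

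**Figure D4:**
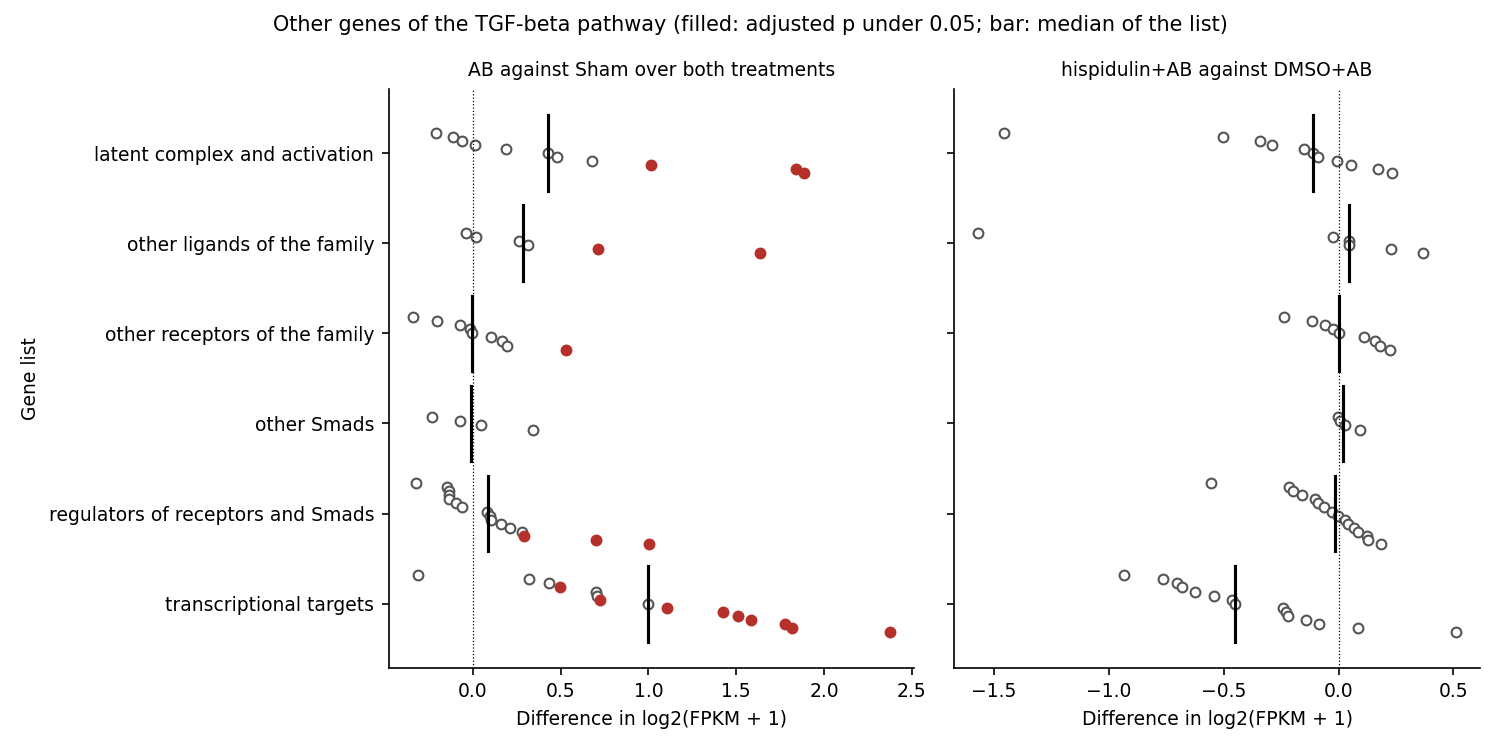
Difference in log2(FPKM + 1) for the 61 tested genes of 6 pathway lists, over both treatments (left) and between hispidulin+AB and DMSO+AB (right), 1 point per gene, filled where the adjusted p was under 0.05, with a bar at the median of each list. Transcriptional targets have the highest median on the left (1.00) and the lowest on the right (-0.45), and no point on the right is filled.

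The levels of cell type markers are given beside these results. Of 6 fibroblast markers 1 (Mfap5) was called higher in DMSO+AB, all 6 estimates were above 0 and their median was 0.44. Their summed level was 349 to 416 FPKM in DMSO+Sham, 362 to 488 in hispidulin+Sham, 392 to 783 in DMSO+AB and 405 to 546 in hispidulin+AB, highest in DMSO+AB 2. Of 6 macrophage markers 0 were called (median 0.13), with sums of 120 to 293 FPKM in DMSO+Sham and 156 to 239 in DMSO+AB, and of 6 endothelial markers 0 were called (median 0.15), with sums of 299 to 315 FPKM in DMSO+Sham and 334 to 353 in DMSO+AB. Of 6 smooth muscle and pericyte markers 0 were called (median -0.06). At an unadjusted p under 0.05, limma gave 4 of the 6 fibroblast, 4 of the 6 cardiomyocyte, 2 of the 6 smooth muscle and pericyte, 0 of the 6 macrophage and 0 of the 6 endothelial markers in DMSO-treated mice, beside 20.4% of all genes. No marker stood at 0 in all 12 libraries, while lymphocyte and adipocyte markers summed to at most 1.28 and 1.01 FPKM. The part of these levels in the differences of the 9 genes was not tested.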

How the data were processed

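The authors sequenced poly(A)-selected RNA of 12 left ventricles (single-end 50-base reads, BGISEQ-500) and deposited 1 table of FPKM, rounded to 0.01, for NCBI Gene identifiers. Per the labels' processing notes HISAT2 2.0.4, Bowtie2 2.2.5, RSEM 1.2.12 and DESeq2 1.4.5 were used, and the genome build is not given in the sources used here. Low values did not step in whole reads (19.4% of their ratios fell within 0.1 of an integer, where an even spread gives 20%), so depth is unknown. FPKM sums were 535235 to 567027. Symbols were found for 17947 genes (99.3%).

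The 11664 genes that reached 1 FPKM in 3 or more libraries were tested on log2(FPKM + 1) with limma 3.58.1 in R 4.3.3, with 1 mean per group over all libraries, eBayes with a trend, two-sided tests and Benjamini-Hochberg adjustment, and the scripts were tested on simulated data. Exact permutation tests were run on single genes in Python 3.11.15. Groups came from the labels. The limma p-values set differences of group means against the spread between mice within groups, estimated over all libraries. The 9 genes and the lists were chosen with earlier results of these data known. Named were, besides the 9 genes, pathway genes with an adjusted p under 0.05 in DMSO+AB against DMSO+Sham or over both treatments, where none passed in the first the 2 genes of smallest p, and for each of the 9 the 2 genes of highest correlation. Of the genes so named, 2 are not reported here.

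Replicate numbers belong to different animals. Same-numbered mice deviated together in hispidulin+AB and hispidulin+Sham (correlations of 0.147, 0.197 and 0.228) and in hispidulin+Sham and DMSO+Sham (0.126, 0.330 and 0.232). In hispidulin+AB and DMSO+AB they did so in 2 of 3 numbers (0.3, 0.176 and -0.183), and in DMSO+AB and DMSO+Sham in none. Mice of different numbers were not correlated in this way, so these values cannot show whether the number pairs mice. The replicate number was tried as a block. Atrial, lymphocyte, neutrophil, platelet, red blood cell, adipocyte and mesothelial markers were listed too, and 0 of the tested ones were called.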

Additional observations from a re-analysis of the deposited data

Results flagged for a closer look

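Tgfbr2 measured 34.71 FPKM in DMSO+Sham 3, against 15.37 to 19.00 FPKM in the other 5 Sham mice. The gap to the nearest Sham mouse was 0.812 of the range of the 6 Sham mice, above Dixon's 95% critical value for 6 values. Chance puts about 1 group in 20 beyond that value, and 18 groups were examined (9 genes in the 6 Sham and the 6 AB mice), of which this was 1.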

How the results depend on the processing

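Read depth is unknown and each group holds 3 mice, which limits what small differences can be seen. Of the 9 genes, 4 were called between DMSO+AB and DMSO+Sham and 5 over both treatments. With library weights 7 were called in the first comparison (1423 genes in all, against 608) and 2 between hispidulin+AB and hispidulin+Sham, and 2535 genes in all over both treatments (against 862). These weights ran from 0.328 for DMSO+Sham 3 to 2.76 for DMSO+Sham 1, so the DMSO+Sham level rests mostly on 1 mouse. With the number series as covariate the counts were 2 and 3 (142 and 547 genes in all), and with only the libraries compared 0 (11 genes in all, against 608). Without a filter on low values, when 18079 genes are tested, 3 of the 9 were called over both treatments, and 358 genes in all in DMSO-treated mice. Without the 3 libraries high in atrial genes, a setting chosen after seeing the data, 1 of the 9 was called in each (20 and 74 genes in all). A minimum FPKM of 5 removed Smad2 and Smad3. With each library left out in turn, 1 to 4 of the 9 were called between DMSO+AB and DMSO+Sham (91 to 1053 genes in all) and 3 to 6 over both treatments (376 to 1220). The Tgfbr2 difference between DMSO+AB and DMSO+Sham became 0.121 with library weights and ran from -0.314 to 0.249 over the libraries left out. The cause of these changes was not tested. Over all 6 comparisons the 9 genes gave 996 alternative values, of which 905 kept direction and side of the threshold, 43 lost the call, 13 gained it and 35 changed sign, and the smallest adjusted p among these 35 was 0.29. Adding a replicate block for the numbers of the mice, 4, 5 and 0 of the 9 were called in DMSO-treated mice, over both treatments and in hispidulin-treated mice, so that the block changed no call of the 9 genes. In DMSO+AB and DMSO+Sham same-numbered mice did not deviate together (correlations of -0.024, -0.044 and -0.198).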
